A study of Mus musculus with 5 samples.

Results

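AP-1 transcription factors are dimers of basic leucine zipper proteins, and their genes were followed here in mouse embryonic fibroblasts that received a vehicle or 1 of 4 kinase- or topoisomerase-directed compounds. The list holds 9 genes, Fos, Fosb, Fosl1, Fosl2, Jun, Junb, Jund, Atf3 and Maff, and a gene was measured where a probe set of the array carried its symbol and no other. This gave 9 probe sets of 8 genes among 41345 probe sets and 22180 genes in all. The only probe set annotated with Fosl1 also carries a second symbol, Ccdc85b, and Fosl1 was therefore not analysed. Jund had 2 probe sets and each of the other 7 genes had 1.

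The cells of every group were STING-/- fibroblasts that had been given back STING as R284S, a constitutively active form of this cytosolic DNA sensing adaptor, and a tag of the labels also calls them primary. The groups were Vehicle, Compound C, Doxorubicin, GSK 690693 and Tofacitinib, with 9 hours of treatment per the labels and 1 array per group. Compound C (dorsomorphin) blocks AMPK, an energy sensor, and receptors for BMP ligands. Doxorubicin traps topoisomerase II on DNA, GSK 690693 inhibits AKT and to some degree AMPK, and tofacitinib acts on JAK kinases. The sources used here give no doses, no promoter for the returned STING and no number of clones or cultures, and no group holds cells with wild-type STING or none. With 1 array per group there is no error for any value, no test and no p-value, and each difference is one between single arrays.

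JUN proteins pair with one another or with FOS proteins, whereas FOS proteins need a JUN partner, and the dimers bind the TGACTCA element or the related TGACGTCA element of CREB and ATF factors. Many of these genes are immediate early genes: growth factors, cytokines and stress switch them on within minutes through MAP kinases, serum response factor and CREB-type factors, and their transcripts are short-lived. In fibroblasts AP-1 is known for driving matrix metalloproteinases, cyclin D1 and inflammatory mediators, while JUNB, JUND, FOSL2 and ATF3 can also restrain transcription, depending on the partner.

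Promoters of the 4 genes that read at least 2-fold apart from vehicle on some array are printed here, since the basic leucine zipper family is known to act on its own genes. Each sequence is the 250 bases before the annotated start in RefSeq's annotation of build GRCm38.p6, printed 5′ to 3′ on the gene's strand. They lie at chr4:95052223-95052472 (minus strand) for Jun, chr8:84978749-84978998 (minus strand) for Junb, chr5:32136222-32136471 (plus strand) for Fosl2 and chr12:85473640-85473889 (plus strand) for Fos. Capitals mark matches, on either strand, to TGACTCA, TGACGTCA, TGACATCA or the shorter TGACG, which is contained in TGACGTCA.

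Jun: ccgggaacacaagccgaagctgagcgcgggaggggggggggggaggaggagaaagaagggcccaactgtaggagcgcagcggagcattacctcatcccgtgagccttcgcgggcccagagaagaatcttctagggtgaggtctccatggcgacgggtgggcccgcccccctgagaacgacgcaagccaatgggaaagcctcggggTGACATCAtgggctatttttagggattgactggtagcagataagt

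Junb: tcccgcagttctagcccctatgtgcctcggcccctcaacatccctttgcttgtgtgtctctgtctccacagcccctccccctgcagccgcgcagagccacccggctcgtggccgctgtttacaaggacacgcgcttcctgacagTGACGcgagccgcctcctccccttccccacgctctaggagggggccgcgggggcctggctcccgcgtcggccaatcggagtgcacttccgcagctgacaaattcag

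Fosl2: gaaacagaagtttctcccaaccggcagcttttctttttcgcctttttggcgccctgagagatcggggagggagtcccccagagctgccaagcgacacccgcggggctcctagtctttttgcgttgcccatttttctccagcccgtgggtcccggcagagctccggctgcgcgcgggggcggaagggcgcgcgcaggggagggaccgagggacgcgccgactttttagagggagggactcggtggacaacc

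Fos: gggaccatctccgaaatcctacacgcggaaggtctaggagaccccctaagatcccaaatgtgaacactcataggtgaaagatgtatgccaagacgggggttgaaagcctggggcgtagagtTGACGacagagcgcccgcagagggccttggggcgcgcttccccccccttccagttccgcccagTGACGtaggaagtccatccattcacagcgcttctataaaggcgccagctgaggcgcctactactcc

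The Jun window holds TGACATCA from 45 to 38 bases before the start, a sequence that 2.93% of the 32851 windows of this length in the table also hold. TGACG occurs in the Fos window at 66 and again at 129 bases before the start, in the Junb window at 106 bases, and in 17.8% of all windows. The Fosl2 window holds none of the marked motifs, which says only that these letters are not in these 250 bases. Of the windows of the other members, the Fosb window has TGACG at 60 bases before the start and the Atf3 window has its complement, CGTCA, at 7 bases, while the Jund window has none of the 4 motifs. Maff has 3 annotated starts: 1 window holds the whole TGACGTCA, found in 1.55% of all windows, another holds TGACATCA and the third holds none. TGACTCA itself is in none of the 10 windows of the 8 genes and in 4.46% of all windows. The CCAAT motif is present for Jun and Junb (33.8% of all windows) and TATAAA for Fos (12.4%). GGGCGG is present for Jun, Fosl2, Fosb, Fos, Atf3 and Maff (32.7%). Neither the serum response factor's CArG box (1.47%) nor the STAT motif TTCCNGGAA (0.913%) was found in any of the 10 windows. For every gene, sequence further than 250 bases before the start was not searched, so an absence covers these windows only. A match is a description of the letters and not a bound site.

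All 8 measured genes passed the filter on dim signal, and each reached the median of every one of the 5 arrays, which lay between 5.37 and 5.44 on the log2 scale over probe sets with 1 symbol. They belong to 12317 genes that passed, called tested genes below although no test could be made. The 12 fibroblast markers were all among the tested genes, whereas the leukocyte gene Ptprc (3.65 to 3.86), the endothelial gene Pecam1 (4.61 to 5.31) and the epithelial gene Epcam (3.59 to 3.92) stayed below the filter on all arrays. Of the wider marker lists, 4 of 8 macrophage, 2 of 6 endothelial, 5 of 6 epithelial, 5 of 6 muscle and 2 of 5 neural genes passed. The summed macrophage signal (log2 of the sum over 8 genes) was highest on the doxorubicin array, 8.79, where Cd68 read 7.63 against 6.56 with vehicle, and lay between 8.28 and 8.42 on the other 4. The summed muscle signal lay between 10.21 (GSK 690693) and 10.89 (vehicle), the neural between 8.74 and 9.30, the endothelial between 7.24 and 7.60, the epithelial between 8.26 and 8.48 and the fibroblast between 14.43 and 14.57. Their part in the differences below was not tested. In RNA from whole cultures, fewer cells that express a gene and less RNA per cell cannot be told apart.

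Jun, which encodes the founding JUN protein and strongest activator of the family, had a log2 signal of 9.89 on the vehicle array, 8.78 on that of Compound C, 7.24 on that of doxorubicin, 9.78 on that of GSK 690693 and 10.02 on that of tofacitinib. The doxorubicin array stood lowest, Compound C between it and the rest, and the other 3 arrays lay close together. Against vehicle this was a log2 difference of -2.65 with doxorubicin, 6.28-fold lower, which ranked 24 from the lowest of the 12317 tested genes. With Compound C, Jun differed by -1.11, or 2.16-fold lower, at rank 220 from the lowest. GSK 690693 (-0.11) and tofacitinib (0.13) gave values near vehicle.

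Junb, whose product shares the partners of JUN but activates less strongly, read 8.19 with vehicle, 6.77 with doxorubicin, 8.86 with Compound C, 7.97 with tofacitinib and 8.42 with GSK 690693. Its order differed from that of Jun at the top, where Compound C was highest, and was alike at the bottom, where doxorubicin was lowest. The log2 differences from vehicle were 0.67 with Compound C and -1.42 with doxorubicin, the latter 2.68-fold lower and at rank 322 from the lowest. With GSK 690693 and tofacitinib they were 0.23 and -0.22.

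Jund, the JUN gene that is expressed more evenly in resting cells, read 9.34 with vehicle, 8.51 with doxorubicin, 8.35 with Compound C, 9.02 with tofacitinib and 9.29 with GSK 690693 on its brighter probe set. Compound C (-0.99) and doxorubicin (-0.83) were both lower than vehicle, each by less than 2-fold. A second, dimmer probe set of Jund read 6.18 with vehicle, 5.57 with doxorubicin, 5.98 with Compound C, 5.64 with tofacitinib and 6.08 with GSK 690693. There the difference with Compound C shrank to -0.20 and that with doxorubicin was -0.61, so the lower reading with Compound C rested on the brighter probe set.

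**Figure D1:**
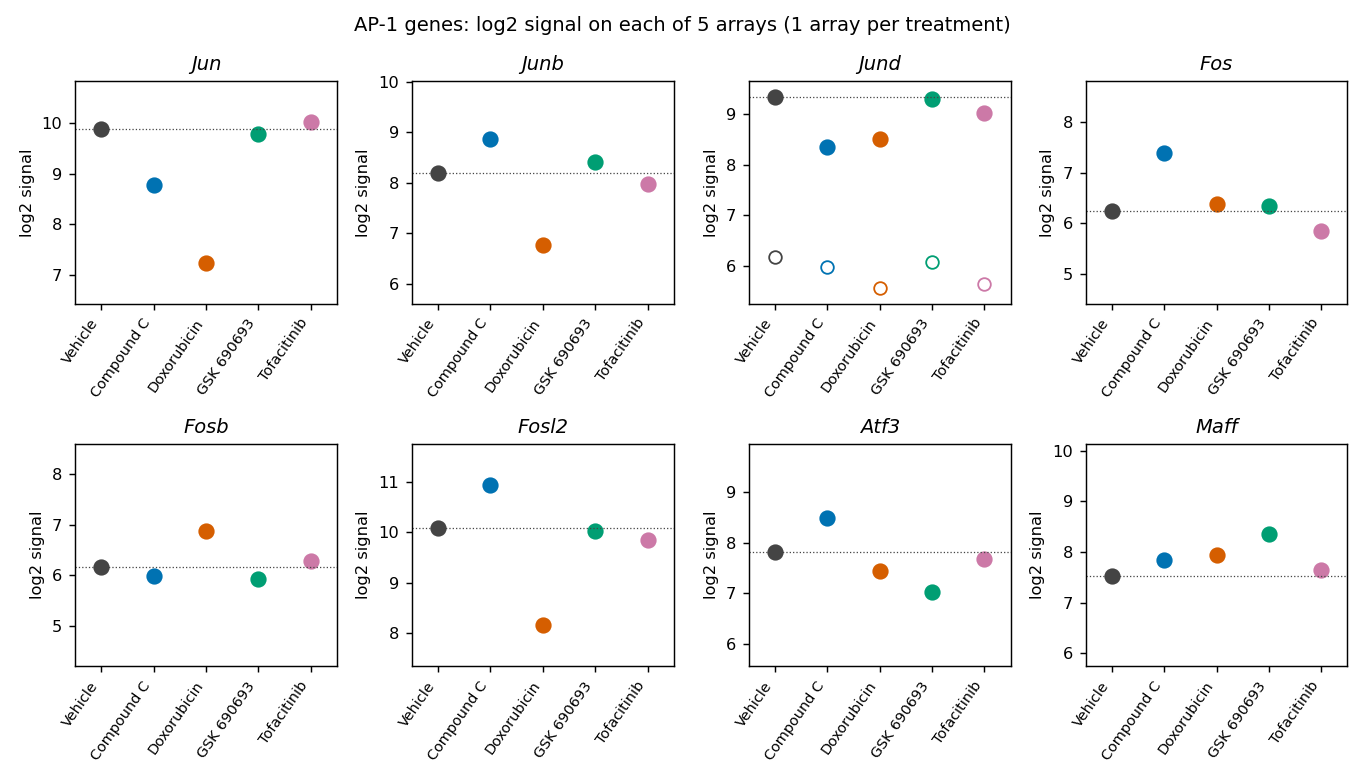
Log2 signal (vertical axes, each spanning the same number of log2 units) of the 8 measured AP-1 genes on the 5 arrays, 1 point per array, with the vehicle value as a dotted line; open circles are the dimmer probe set of Jund. Doxorubicin is the lowest point for Jun (7.24), Junb (6.77) and Fosl2 (8.16), and Compound C is the highest for Fos (7.38), Fosl2 (10.94), Junb (8.86) and Atf3 (8.49).

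Fos, the classical immediate early gene, read 6.23 with vehicle, 6.38 with doxorubicin, 7.38 with Compound C, 5.84 with tofacitinib and 6.33 with GSK 690693. Compound C stood apart above the other 4 arrays. The log2 difference of 1.15 was 2.22-fold and ranked 97 from the highest of the tested genes with that compound. With doxorubicin Fos was 0.15 from vehicle, with GSK 690693 0.10 and with tofacitinib -0.39.

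Fosb, whose product resembles FOS and has a truncated form that lacks the activation domain, read 6.17 with vehicle, 6.88 with doxorubicin, 5.98 with Compound C, 6.28 with tofacitinib and 5.92 with GSK 690693. Doxorubicin was highest, by 0.71 over vehicle or 1.64-fold, and no compound array was 2-fold from vehicle. Values per transcript form were not analysed here.

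Fosl2 encodes FRA2, a FOS relative without the strong activation domain of FOS. It read 10.08 with vehicle, 8.16 with doxorubicin, 10.94 with Compound C, 9.84 with tofacitinib and 10.02 with GSK 690693. The array with Compound C was highest and that with doxorubicin lowest, 6.87-fold apart. Against vehicle, doxorubicin differed by -1.92, 3.78-fold lower and at rank 101 from the lowest, and Compound C by 0.86, which is 1.82-fold. GSK 690693 (-0.06) and tofacitinib (-0.24) lay close to vehicle.

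Atf3, a stress-induced member that represses as a homodimer, read 7.82 with vehicle, 7.45 with doxorubicin, 8.49 with Compound C, 7.69 with tofacitinib and 7.03 with GSK 690693. Here GSK 690693 was lowest, at -0.79 from vehicle and rank 145 from the lowest of all tested genes with that compound, and Compound C highest. Compound C differed by 0.67 in the other direction. Atf3 read 2.75-fold lower with GSK 690693 than with Compound C, a log2 difference of -1.46.

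Maff encodes a small MAF protein, which lacks an activation domain and pairs with CNC factors such as NRF2 or with FOS. It read 7.53 with vehicle, 7.93 with doxorubicin, 7.85 with Compound C, 7.64 with tofacitinib and 8.35 with GSK 690693. Every compound array was above vehicle, although tofacitinib lay below it (-0.06) once each array was centred on its median, and GSK 690693 was highest, at 0.82 or 1.77-fold and rank 62 from the highest. The difference was 0.32 with Compound C, 0.40 with doxorubicin and 0.11 with tofacitinib.

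**Figure D2:**
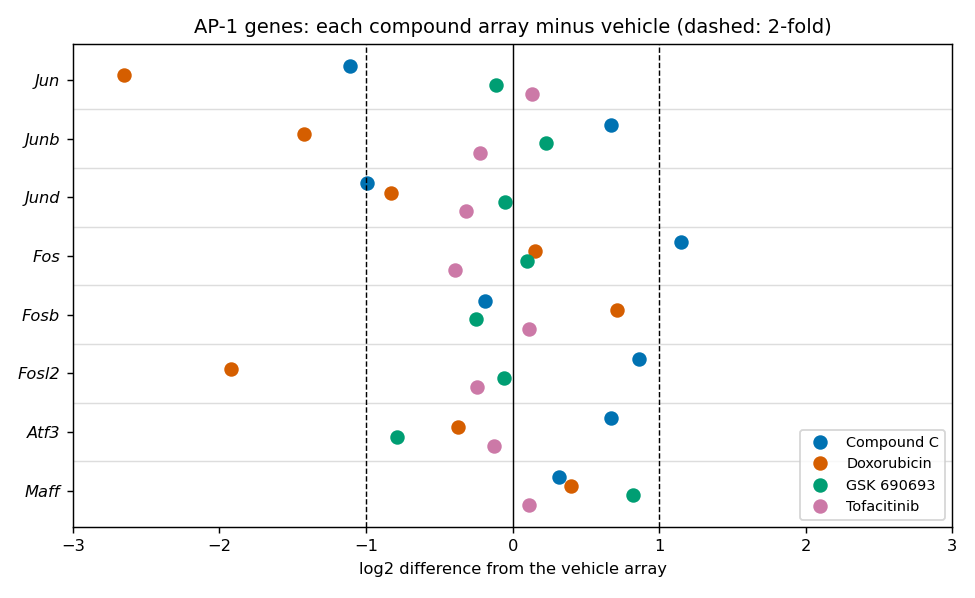
Log2 difference from the vehicle array (horizontal axis) for each AP-1 gene and compound, 1 point per compound array, with dashed lines at 2-fold. Doxorubicin lies beyond the left line for Jun (-2.65), Fosl2 (-1.92) and Junb (-1.42), Compound C beyond the left line for Jun (-1.11) and beyond the right line for Fos (1.15), and no point of GSK 690693 or tofacitinib reaches either line.

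Counted at 2-fold, doxorubicin gave the most members apart from vehicle. Jun, Fosl2 and Junb made 3 of 8 members at least 2-fold lower, where 6.45% of all tested genes were that much lower, and 0 of 8 were at least 2-fold higher, against 1.33% of tested genes. The median member difference was -0.60 beside 0.05 for all tested genes, yet the range ran from -2.65 to 0.71. Fos (0.15), Fosb and Maff lay above vehicle and 5 members below, beside 54% and 45.1% of the tested genes. Members just inside and outside 2-fold were Junb (-1.42) and Jund (-0.83).

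With Compound C, 1 of 8 members was at least 2-fold higher, Fos, and 1 at least 2-fold lower, Jun, beside 1.3% and 2.52% of the tested genes. Jund, at -0.99, lay just short of the lower limit. The median member difference was 0.49 against -0.02 for all tested genes. Above vehicle lay 5 of 8 members and below it 3, beside 46.6% and 52.2% of the tested genes. Within the JUN genes, Jun and Jund read lower and Junb higher; within the FOS genes, Fos and Fosl2 read higher and Fosb (-0.19) near vehicle.

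With GSK 690693, 0 of 8 members were 2-fold apart in either direction, where 0.187% of the tested genes were higher and 0.601% lower, and its member differences ran from -0.79 (Atf3) to 0.82 (Maff). With tofacitinib 0 of 8 were 2-fold apart, beside 0.0487% higher and 0.414% lower, and its differences ran from -0.39 (Fos) to 0.13 (Jun). At such shares a count of 0 among 8 genes is near what all genes show. JAK kinases act upstream of STAT3, which is known to induce Junb. The Junb difference with tofacitinib was -0.22, at rank 1664 from the lowest of the tested genes, whose median was 0.09. By size regardless of sign, 54.7% of the tested genes had a smaller difference. A link between the compound's target and the Junb difference was not tested.

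**Figure D3:**
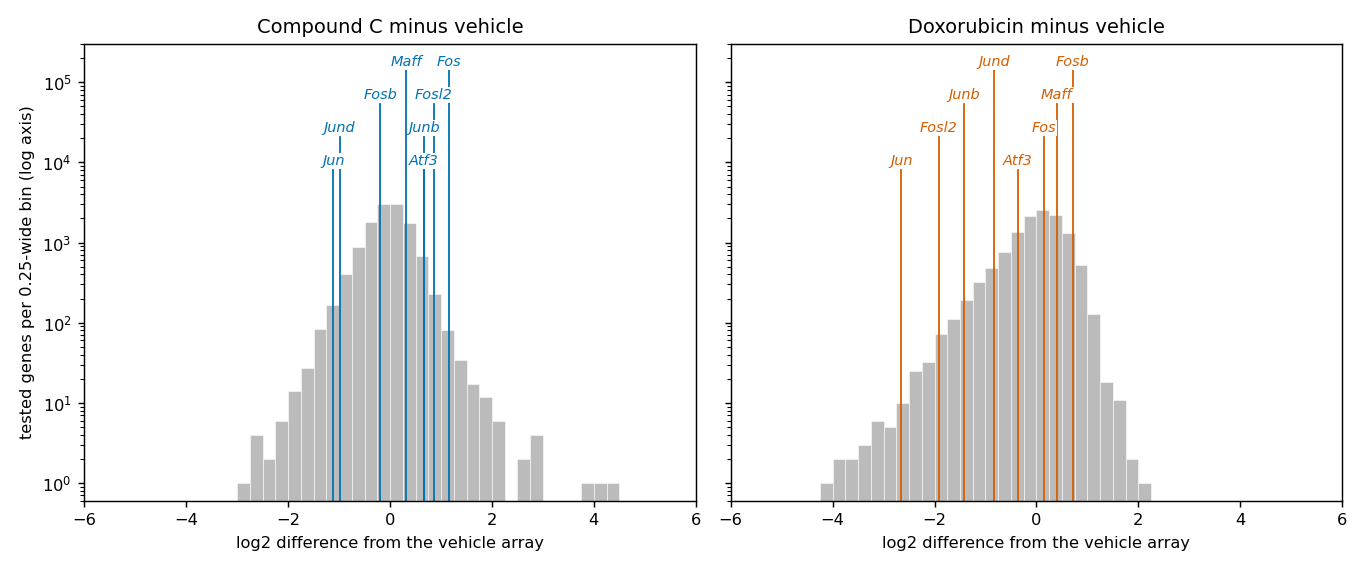
Number of the 12317 tested genes (vertical axis, log scale) by log2 difference from vehicle (horizontal axis, bins 0.25 wide) with Compound C and with doxorubicin; coloured lines mark the AP-1 genes and their heights carry no value. With doxorubicin Jun (-2.65) and Fosl2 (-1.92) lie in the thin left tail, and with Compound C the members spread from Jun (-1.11) to Fos (1.15).

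The comparison of doxorubicin with Compound C does not use the vehicle array. Here 5 of 8 members read at least 2-fold lower with doxorubicin, Fosl2 (-2.78), Junb (-2.09), Jun (-1.54), Atf3 (-1.04) and Fos (-1.0), against 7.82% of the tested genes. Fos sat exactly at the limit and the other 4 beyond it. None was at least 2-fold higher (0 of 8), against 2.44% of the tested genes, with Fosb closest at 0.90. Fosl2 ranked 27 from the lowest of all tested genes in this comparison and Junb 138. The difference was small for Jund (0.16) and Maff (0.08). The other differences between compounds do not use the vehicle array either. GSK 690693 minus Compound C was -1.46 for Atf3, -1.05 for Fos and -0.92 for Fosl2, and 1.0 for Jun and 0.94 for Jund. Tofacitinib minus GSK 690693, the closest pair of arrays by the SD of the differences over tested genes (0.258), ran from -0.71 (Maff) to 0.66 (Atf3).

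With no replicates, the distance between arrays of that closest pair gives a rough scale: 99% of the tested genes differed by at most 0.83 between tofacitinib and GSK 690693. In the order of the 5 arrays for each member, the gap between neighbours exceeded 0.83 in 6 of 32 places (18.8%), beside 2.11% of such gaps over all tested genes. For Jun these were GSK 690693 over Compound C (1.0) and Compound C over doxorubicin (1.54). For Fosl2 they were Compound C over vehicle (0.86) and tofacitinib over doxorubicin (1.68), for Junb tofacitinib over doxorubicin (1.20), and for Fos Compound C over doxorubicin (1.0). No neighbouring arrays were that far apart for Jund, Fosb, Atf3 or Maff. Measured instead against the 99% limit of the 2 arrays that each gap separates, which lay between 1.41 and 2.16 for these 6 gaps, 0 of 32 gaps exceeded it. The share over all tested genes was not computed for this limit. Since 99% of tested genes stay within it for any pair of arrays, the count of 0 tells little about the members.

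The members did not share 1 pattern. Likeness was measured as the root mean square distance between the 4 log2 differences from vehicle, which share the vehicle array. By it Junb and Fosl2 were the closest pair of members, 0.30 apart, and Jun and Fos the most distant, 1.82 apart. Jun was 0.94 from Jund, its nearest member. The search for near genes covered the tested genes except those left out by symbol, among them every symbol starting with Rn. Of the genes searched, the nearest to Jun were the homeobox gene Emx2 (0.139), the BMP-responsive inhibitor Id3 (0.227) and the RNase P subunit gene Rpp38 (0.23). Emx2 differed by -1.02 with Compound C and -2.83 with doxorubicin, and Id3 by -1.24 and -3.04. Nearest to Fosl2 were Rbbp6 (0.127), Irf2bp2 (0.165) and the decapping factor gene Dcp1a (0.192), which differed by -2.00, -2.01 and -2.12 with doxorubicin and by 0.62, 0.60 and 0.57 with Compound C. Nearest to Junb were Lrif1 (0.119), the immediate early gene Ier5 (0.121) and Gtf3c4 (0.136), with doxorubicin differences of -1.23, -1.29 and -1.35. Nearest to Fos were Trim69 (0.0579), the growth factor gene Fgf18 (0.129) and Rgcc (0.129), with Compound C differences of 1.13, 1.12 and 1.13. Each likeness rests on 4 values per gene, chosen from the searched part of the 12317 genes, and is a description.

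Genes that switch AP-1 genes on or pair with their products were read on the same arrays, at the same 2-fold limit and against the shares of tested genes given above. Among 6 SRF, ternary complex and MRTF genes, 2 were lower with doxorubicin and 0 were 2-fold apart with any other compound. These were the actin-regulated coactivators Mrtfa, at 9.60 with vehicle and 7.41 with doxorubicin (-2.19), and Mrtfb (-1.37). A second, dimmer probe set of Mrtfb differed by 0.03. Its signal lay between 4.88 and 5.21, below the array medians of 5.37 to 5.44 on every array, so its small difference says little. Srf itself differed by -0.08 with doxorubicin. The ternary complex factor genes Elk1, Elk3 and Elk4, whose products MAP kinases phosphorylate, differed by 0.11, 0.37 and 0.16. The list median with doxorubicin was 0.02.

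Of 20 tested MAP kinase pathway genes, Map3k8 alone was 2-fold apart from vehicle. This kinase (TPL2), which activates ERK signalling in inflammation, read 6.36 with vehicle, 4.99 with doxorubicin (-1.37) and 7.42 with Compound C (1.06). Its doxorubicin value lay below the array medians of 5.37 to 5.44. The JNK genes Mapk8 and Mapk9, named for phosphorylating JUN, differed by 0.11 and 0.41 with doxorubicin and -0.47 and 0.00 with Compound C. The list median was 0.10 for Compound C and 0.12 for doxorubicin. The array measures kinase transcripts and not kinase activity.

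Of 4 tested BATF, JDP and ATF2 family genes, 0 were 2-fold apart with any compound. Jdp2, whose product represses as a partner of JUN, read 7.76 with vehicle and 7.40 with doxorubicin. With doxorubicin 1 of 9 other MAF and CNC genes was lower, the heme-regulated repressor Bach1 (-1.41), and with Compound C 1 of 9 was higher, Mafk (1.61), a small MAF gene like Maff. Mafk read 8.99 with Compound C and 6.65 with doxorubicin, so it lay above and below its vehicle value of 7.38, whereas Maff was above vehicle on both. The list medians were 0.15 with Compound C and -0.24 with doxorubicin.

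Among 13 CREB, ATF and CEBP genes, 3 were lower and 0 higher with doxorubicin: Cebpb (-2.12), Atf4 (-1.26) and Cebpd (-1.23). Compound C gave 2 higher, Cebpd (1.60) and the stress-response gene Atf4 (1.09), and 2 lower, Creb5 (-1.21) and Creb3 (-1.03). The 2 lower became 1 when arrays were centred on their medians, and also against the median of the 4 remaining arrays, and the 2 higher became 1 against the latter. Creb3 was outside the rule for named genes and was added after its value was seen. The median was 0.35 with Compound C and -0.32 with doxorubicin. Tofacitinib gave 1 lower, the STAT3-responsive gene Cebpd (-1.07), which became 0 under quantile normalization, and GSK 690693 gave 0 at 2-fold in either direction. Cebpd read 5.59 with vehicle, 4.36 with doxorubicin and 4.52 with tofacitinib. The last 2 values lay below the array medians of 5.37 to 5.44, and Cebpd counted as tested only through its other arrays.

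Transcripts of several AP-1 genes, such as Fos, carry AU-rich elements that can mark them for decay, which were not examined here. With doxorubicin, 6 of 19 genes listed for the control of such transcripts were lower by 2-fold or more and 0 higher. The 3 lowest were Tob1 (-2.16), Btg2 (-1.94) and Zfp36 (-1.47), the gene of the AU-rich element binding protein tristetraprolin. Zfp36 read 8.66 with vehicle and 7.19 with doxorubicin. With each of the other compounds 0 of 19 were 2-fold apart, and the list median was -0.36 for Compound C and -0.24 for doxorubicin. Among 7 genes for turnover and coactivation of JUN and FOS proteins, Crebbp, the acetyltransferase CBP, was the only one 2-fold apart, at -1.15 with doxorubicin. Fbxw7, which marks JUN for degradation, differed by -0.64 with doxorubicin and 0.61 with Compound C.

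Other immediate early genes resembled Jun, Junb and Fosl2 in direction with doxorubicin. Of 18 tested, 10 were at least 2-fold lower and 0 higher, with a median of -1.13, led by Ccn1 (-3.55), Myc (-3.09) and Ier3 (-1.99). Egr2 (0.74), Egr3 (0.58), Nr4a3 (0.59) and Arc (0.59) lay above vehicle, as did Fosb (0.71), while Fos (0.15) was near vehicle. With Compound C, 3 were higher, the nuclear receptor genes Nr4a1 (1.81), Nr4a3 (1.40) and Nr4a2 (1.33), and 1 was lower, Myc (-1.05), which became 0 when arrays were centred on their medians, and also against the median of the 4 remaining arrays. GSK 690693 gave 1 lower, Nr4a2 (-1.05), and tofacitinib 0 in either direction.

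Genes commonly ascribed to AP-1 as targets gave counts with doxorubicin near the shares of all tested genes. Their median was 0.10 beside 0.05 for all tested genes. Of 27 tested, 0 were lower by 2-fold or more, beside 6.45% of all tested genes. Mmp12, at exactly 1.0, was the 1 gene 2-fold higher, beside 1.33%. These counts were not stable: quantile normalization gave 0 higher and 1 lower, no filter on dim probe sets 3 higher, and the median of the 4 remaining arrays as reference 0 higher. The list median lay between 0.08 (quantile normalization) and 0.35 (no filter). Of the metalloproteinase genes, Mmp3 differed by 0.83, Mmp10 by 0.85, Mmp9 by 0.51 and Mmp13 by 0.40, and Ccnd1, the cyclin D1 gene, by 0.67. Lowest were Fgf7 (-0.95) and Lif (-0.88). With Compound C, 2 of 27 were lower, the EGF receptor ligand gene Hbegf (-1.46) and the urokinase receptor gene Plaur (-1.43), and Hmox1 was higher (1.11), with a median of -0.09. GSK 690693 gave 1 lower, Il6 (-1.02), with a median of -0.06, and this became 0 against the 4 remaining arrays. Tofacitinib gave 0 with a median of 0.01, and 1 lower under median centring or quantile normalization.

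**Figure D4:**
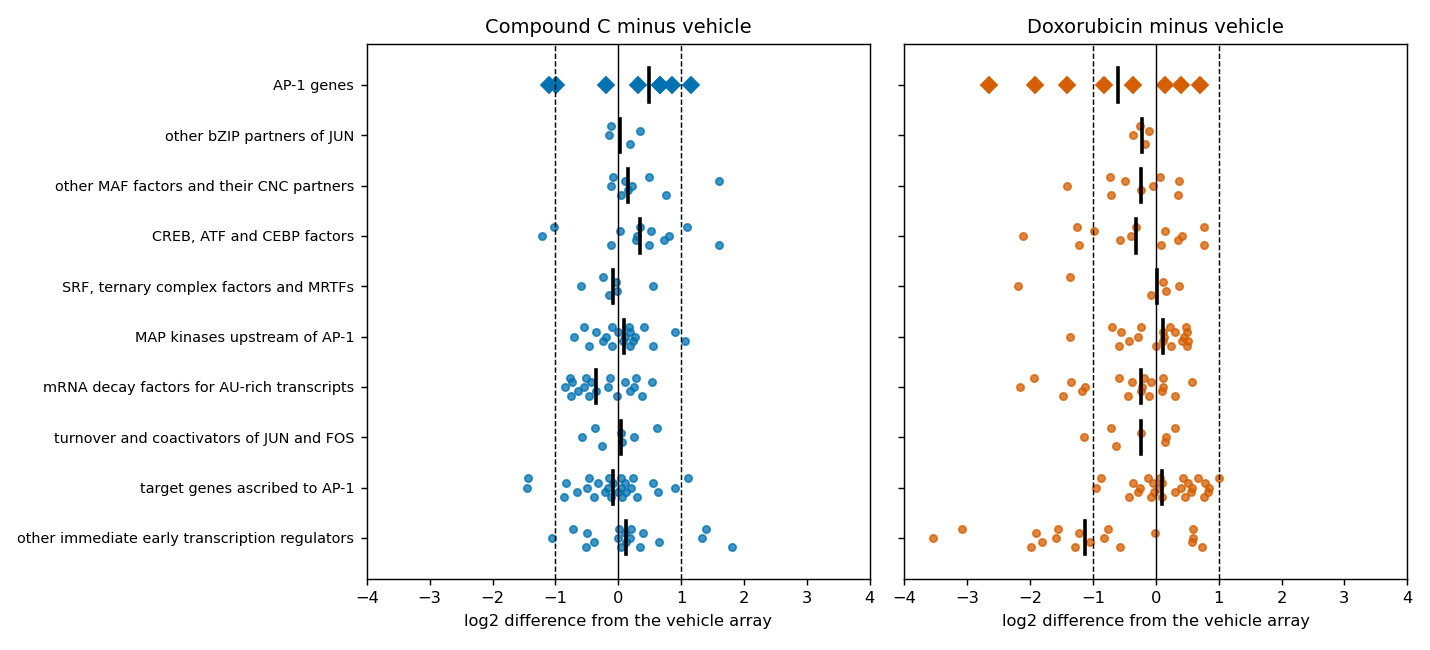
Log2 difference from vehicle (horizontal axis) with Compound C and with doxorubicin for the AP-1 genes (diamonds) and each related list (circles, 1 per tested gene), with the list median as a black bar and 2-fold as dashed lines. With doxorubicin the median of the other immediate early genes is -1.13 and that of the AP-1 genes -0.60, while that of the target genes is 0.10.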

How the data were processed

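Total RNA from 5 fibroblast samples, 300 ng each, was labelled with a whole-transcript Affymetrix kit, per the labels' protocols, and hybridised to 1 array per group. Log2 signals per probe set were deposited by the authors, made with Affymetrix Expression Console 1.3.1.187, per the submitters' processing notes. Of how the signals were summarised and normalized nothing is given in the sources used here. A base of 2 was inferred for the logs from values between 1.05 and 13.18. Probe sets were named from the platform annotation: 23521 had 1 symbol, 1814 had several and were not used, and 16010 were not listed. A gene was represented by its probe set with the highest mean. A gene counted as tested if, on at least 1 array, it reached the array's median over single-symbol probe sets. Differences were computed with Python 3.11.15 and pandas 2.3.3, and genes were counted at 2-fold. The counting code was checked on simulated data with large planted changes and little noise, which says nothing about the error of the real counts.

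The members and lists were chosen with earlier results of these data known. Named genes were all members, the 3 nearest genes to each member that was 2-fold apart from vehicle (predicted genes, clone names, microRNAs and small nucleolar RNAs left out), and up to 3 genes per list and compound at 2-fold or more. The search for nearest genes went by the first letters of the symbol and also left out every symbol starting with Rn. Other list genes were named after their values were seen, for their role or their place at an end of the list. Alternatives were median centring, quantile normalization, no filter, the mean of probe sets, a 1.5-fold limit and, in place of vehicle, the median of the 4 remaining arrays. Promoter sequences are RefSeq's (GRCm38.p6).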

Additional observations from a re-analysis of the deposited data

How the results depend on the processing

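No result has a replicate, so leaving out a replicate was not possible, and no alternative supplies the missing error. The counts of members at 2-fold were within 1.5 times the reported ones under median centring and quantile normalization. Removing the filter on dim probe sets could not change them, since all 8 members passed it. The mean of all probe sets could change only Jund, the 1 member with 2 probe sets, and left the counts the same. Under quantile normalization, doxorubicin against Compound C gave 4 lower members in place of 5. Against the median of the 4 remaining arrays in place of vehicle, Compound C gave 2 higher members in place of 1, since Fosl2 reached 1.01. A 1.5-fold limit gave 4 higher and 2 lower members with Compound C, beside 6.06% and 9.99% of all tested genes, and 1 higher (Maff) and 1 lower (Atf3) with GSK 690693, beside 2.4% and 3.21%. It gave 1 of 8 higher (Fosb) with doxorubicin, beside 11.5%, and 1 of 8 higher with doxorubicin against Compound C, beside 15.4%, both near the share of all genes. All 5 member differences of 2-fold or more kept their sign under every alternative run. Removing the filter or averaging probe sets could not have changed these 5, whose genes have 1 probe set each. Median centring took the median of all tested genes with tofacitinib from 0.09 to -0.08, and Jun (-0.04), Fosb (-0.06) and Maff (-0.06) then lay below vehicle with that compound. Against the 4 remaining arrays, Jun was 0.44 and Jund 0.52 higher with GSK 690693, where vehicle gave -0.11 and -0.05, and Jun was 0.74 higher with tofacitinib, where vehicle gave 0.13, the largest shift of any member (0.61). The mean of both Jund probe sets gave -0.59 with Compound C. The 2 lower MRTF genes with doxorubicin became 1 with the mean of probe sets. That mean takes in the dimmer Mrtfb probe set, which lay below the array medians throughout. Against the 4 remaining arrays, the lower MAF and CNC genes with doxorubicin went from 1 to 2, the lower immediate early genes with GSK 690693 from 1 to 2 and the higher ones with doxorubicin from 0 to 1, the lower target genes with Compound C from 2 to 4, and the CREB list median with doxorubicin from -0.32 to 0.00. Whether dim probe sets lay above background is unknown.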
